A study of Mus musculus with 2 samples.

Results

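Nogo, its receptor and the oligodendrocyte-myelin glycoprotein are encoded by Rtn4, Rtn4r and Omg, and all 3 genes held peaks in a list of RNA regions recovered with the RNA helicase Mov10 from newborn mouse brain. The members were chosen by their listed peaks: every peak sharing at least 1 base with a GENCODE exon of one of these genes, on the strand opposite the peak's own, was taken whatever its adjusted p. This gave 4 peaks, 1 of Rtn4, 2 of Rtn4r and 1 of Omg, out of 2296 peaks in the list and 768 that lay over an exon on an assembled chromosome. Those 768 exonic peaks touched 558 genes. Because a peak is listed for its reads in the IP and the input, the reads, ratios and p-values of the members are given as a description.

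The RNA came from whole brains of 28 pooled wild-type C57bl/6 pups at postnatal day 2. In RNA immunoprecipitation (RIP), an antibody pulls down a protein together with the RNA bound to it. The Mov10_IP group was 1 library of RNA pulled down with a Mov10 antibody, and the Input group was 1 library of total RNA taken without the pull-down. No replicate was available, so the intervals below, all at 95%, hold the error of counting alone and say nothing of how the conditions vary between brains.

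Rtn4 gives rise to 3 main proteins, Nogo-A, Nogo-B and Nogo-C, which share a C-terminal reticulon domain. Nogo-A, the longest, is made by neurons and by oligodendrocytes and is known as an inhibitor of neurite growth in the adult central nervous system. Rtn4r encodes the Nogo receptor, a leucine-rich repeat protein held on the axon surface by a lipid anchor, and Omg encodes a second lipid-anchored leucine-rich repeat protein that binds the same receptor. Receptor binding is known to collapse growth cones. Mov10 is an RNA helicase known to bind structured RNA and to work with Argonaute proteins.

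The RNA under each peak is shown to give the place of the peak in the transcript. By the paper's methods, RNA and protein were not cross-linked by UV light for this sequencing. A peak therefore does not by itself mark the place where Mov10 was bound. The sequences were read from GENCODE M21 transcripts (mm10, the build of the list) in the 5′ to 3′ direction of the mRNA, with runs of at least 3 G in capitals. The Rtn4 peak lay at chr11:29706801-29707000 with the gene on the plus strand, the Omg peak at chr11:79502001-79502200 with the gene on the minus strand, and the Rtn4r peaks at chr16:18150931-18151350 and chr16:18151771-18152190 with the gene on the plus strand. Rtn4 and Omg are shown whole, and for each Rtn4r peak the first 210 bases are shown.
Rtn4: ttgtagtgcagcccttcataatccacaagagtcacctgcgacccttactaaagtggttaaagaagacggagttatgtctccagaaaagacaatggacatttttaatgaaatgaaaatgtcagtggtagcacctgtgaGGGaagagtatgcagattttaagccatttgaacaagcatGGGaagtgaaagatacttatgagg
Omg: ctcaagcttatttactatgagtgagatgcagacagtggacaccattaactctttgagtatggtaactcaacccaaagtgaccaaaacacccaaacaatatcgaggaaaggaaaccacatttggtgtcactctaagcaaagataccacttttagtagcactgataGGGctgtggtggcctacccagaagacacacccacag
Rtn4r peak 1: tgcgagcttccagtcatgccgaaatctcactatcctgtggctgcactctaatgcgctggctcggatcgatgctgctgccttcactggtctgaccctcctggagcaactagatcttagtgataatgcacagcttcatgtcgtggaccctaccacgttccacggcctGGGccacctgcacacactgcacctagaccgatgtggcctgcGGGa
Rtn4r peak 2: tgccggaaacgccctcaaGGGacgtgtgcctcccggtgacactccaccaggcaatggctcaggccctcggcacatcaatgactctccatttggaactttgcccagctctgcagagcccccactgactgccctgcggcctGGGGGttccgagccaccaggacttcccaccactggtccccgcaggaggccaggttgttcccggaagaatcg

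Each of the 4 peaks lay within 1 long exon, over its coding part. The Rtn4 peak lay wholly within exon 3 of the 9 exons of Rtn4-205, a coding exon of 2361 bases at chr11:29706410-29708770 that encodes most of the part particular to Nogo-A. Of the 10 annotated Rtn4 transcripts, 2 hold this exon, Rtn4-205 and Rtn4-203, and the other 4 coding transcripts skip it. The peak spanned codons 318 to 385 of the 1162 codons of Rtn4-205. No peak was listed over the exons that all Nogo forms share, which include the reticulon domain and the 3′ UTR, so the reads of Nogo-B and Nogo-C have no value of their own here.

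Rtn4r has 1 annotated transcript of 2 exons, and both peaks fell in the second, of 1677 bases at chr16:18150732-18152408. The first peak covered codons 74 to 214 of 473, in the part that encodes leucine-rich repeats. The second covered codons 354 to 473, the C-terminal end of the receptor, and ran 62 bases into the 3′ UTR. Between them lay 420 bases with no listed peak, which equals 2 of the 210-base bins in which the list is laid out on this chromosome strand. Omg also has 1 transcript of 2 exons, and its peak lay in the second, of 2046 bases at chr11:79500982-79503027, over codons 277 to 344 of 443.

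**Figure D1:**
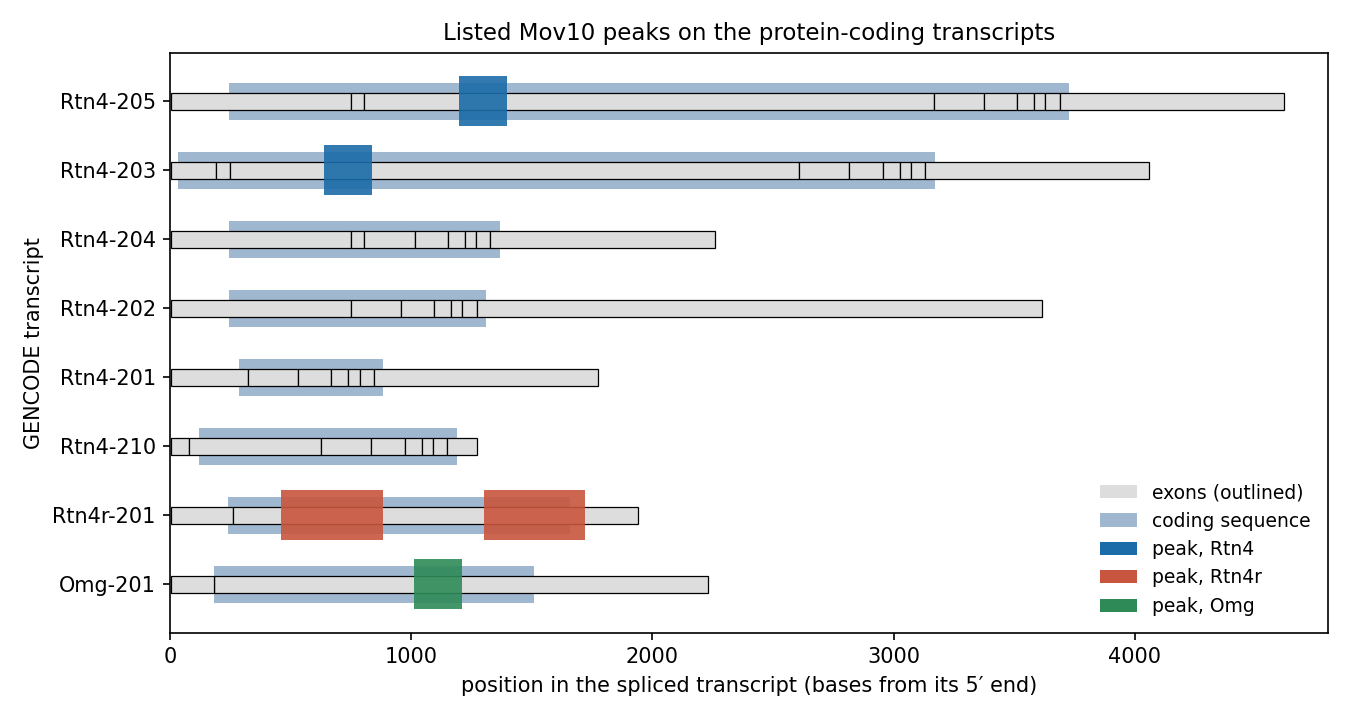
Protein-coding GENCODE transcripts of Rtn4, Rtn4r and Omg drawn to scale, with the position in the spliced transcript in bases on the x axis, exons outlined in grey, coding sequence in pale blue and listed peaks in colour. The Rtn4 peak is present in Rtn4-205 and Rtn4-203 and absent from the 4 coding transcripts that lack the 2361-base exon.

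Of the 768 exonic peaks, 458 (59.6%) lay wholly inside 1 exon, 434 (56.5%) held at least 1 coding base, and 131 (17.1%) were wholly coding, as were the Rtn4 peak, the Omg peak and the first Rtn4r peak. A place inside 1 exon of over 1500 bases together with a coding base, as in all 4 member peaks, was seen in 94 peaks (12.2%). The members are part of these counts, which were not tested. The limit of 1500 bases was not in the planned design, so its share is given as a description only.

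The member peaks differed in base composition. The Rtn4 peak had a GC content of 40.5% and the Omg peak 44.0%, with 8.85% and 16.4% of exonic peaks below them. The Rtn4r peaks were richer, at 57.1% and 65.2%, and 88.4% of exonic peaks had a lower GC content than the second. The median of all exonic peaks was 53.3%, with quartiles of 46.5% and 59.3%. Runs of GGG or longer on the mRNA strand numbered 2 in Rtn4, 1 in Omg, 4 in the first and 11 in the second Rtn4r peak. Among peaks inside 1 exon with lengths within 20 bases of the Rtn4r peaks, 95.8% of 71 held such a run, with a median of 4, and 69 of the 71 had fewer than 11. Among those near the length of the Rtn4 and Omg peaks, 85.4% of 314 held one, with a median of 2. On the other strand, read as CCC in the mRNA, runs numbered 2 in Rtn4, 4 in Omg, 5 in the first and 12 in the second Rtn4r peak, and 92.0% and 100% of the peaks of like length held one.

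None of the 4 sequences had a near copy in another gene. No GENCODE transcript of another gene matched a member peak at 95% identity over at least 100 bases. Among the best-scoring matches of each peak, the longest was that of the first Rtn4r peak to Rtn4rl2, at 66.7% identity over 180 bases. Rtn4rl2 encodes a related receptor. Omg lies within Nf1, the neurofibromin gene, on the opposite strand. Of the 3 genes at that locus other than Omg, namely Nf1, Evi2a and Evi2b, none had a listed exonic peak. Where listed chromosome peaks touched an exon, it was on the strand opposite the peak in 768 of 778 cases, which is how the peak was assigned to Omg.

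Rtn4, the ligand gene, had the most reads of the 4 peaks in both libraries. The Rtn4 peak, 200 bases long, held 2390 reads in the IP (2295 to 2488) and 169 in the input (144.5 to 196.5). Per 1000 bases and 1000000 aligned reads, this was 167 in the IP and 14.2 in the input. The enrichment ratio, which is the share of aligned reads in the IP divided by that in the input, was 11.8 (10.1 to 13.9).

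Omg had fewer reads than Rtn4 in both libraries, with the larger fold difference in the input. Its 200-base peak held 1902 IP reads (1817 to 1989) and 63 input reads (48.4 to 80.6). The levels were 133 and 5.28 on the same scale, and the enrichment ratio was 25.2 (19.6 to 32.9). Oligodendrocytes, which give the protein its name, are few in the brain at this age, and neurons also express the gene. The input level was below that of Rtn4 and above those of both Rtn4r peaks, and 284 of the 768 exonic peaks had a lower one. The level of 1 peak does not measure the whole gene. The number of expressing cells and the RNA per cell cannot be told apart in bulk RNA.

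Rtn4r, the receptor gene, had the lowest levels. The first peak, of 420 bases, held 985 IP reads (924 to 1048) and 49 input reads (36.2 to 64.8), and the second, of the same length, held 1272 (1203 to 1344) and 81 (64.3 to 100.7). The levels were 32.8 and 42.3 in the IP and 1.96 and 3.24 in the input on the same scale. The ratios were 16.8 (12.6 to 22.8) and 13.1 (10.45 to 16.6), and with the reads of both peaks summed the ratio was 14.5 (12.1 to 17.4). The intervals of the IP levels and those of the input levels did not overlap between libraries in any of the 4 peaks. By a related measure, the interval of the ratio, the IP was higher in 99.3% of the 768 exonic peaks.

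**Figure D2:**
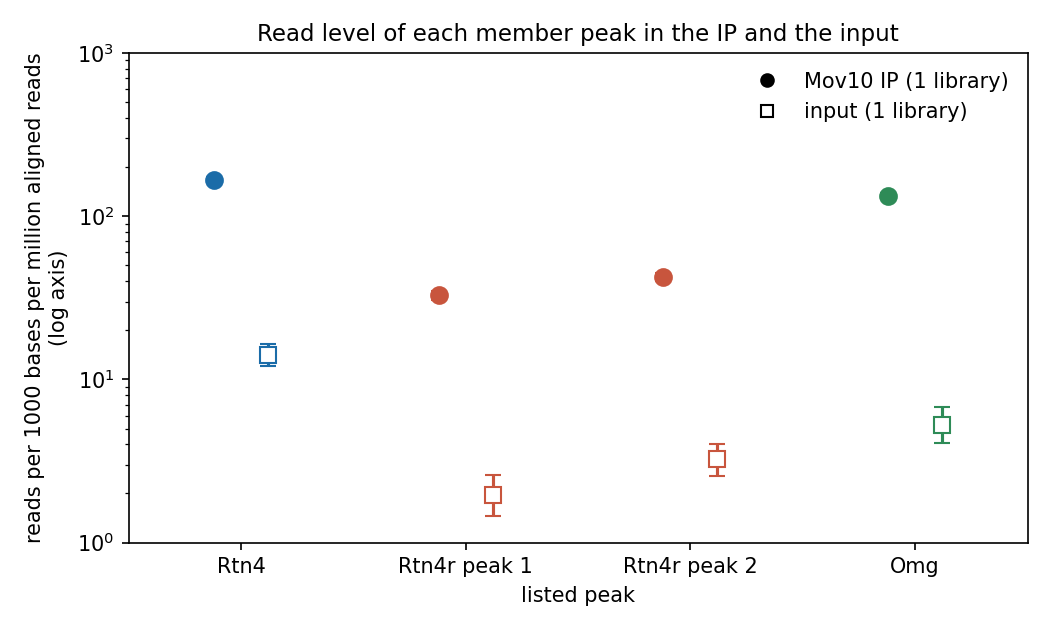
Reads per 1000 bases and 1000000 aligned reads (log axis) of each member peak in the Mov10 IP (filled circles) and the input (open squares), 1 library each, with bars for exact Poisson 95% intervals, which for the IP are smaller than the symbols. The IP lies between 32.8 and 167 and the input between 1.96 and 14.2.

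The interval of the ratio lay above 1 in all 4 member peaks, as it did in 99.3% of the 768 exonic peaks, so enrichment over the input does not set the members apart. Their ratios lay around the middle of that set. The median exonic ratio was 14.6, with quartiles of 8.96 and 23.2. Of the 768 peaks, 290 had a lower ratio than Rtn4, 337 a lower ratio than the second and 446 a lower ratio than the first Rtn4r peak, and 600 a lower ratio than Omg. The Omg peak was the only member above the upper quartile, and its interval reached below that quartile.

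The ratios of the members were compared in 6 pairs, as a ratio of ratios with an exact conditional interval and no adjustment over the pairs. Omg was 2.13 times as enriched as Rtn4 (1.58 to 2.92) and 1.92 times as enriched as the second Rtn4r peak (1.36 to 2.74). Against the first Rtn4r peak it was 1.502 times as enriched, with a lower bound of 1.004 and an upper bound of 2.23. The first Rtn4r peak exceeded Rtn4 by a factor of 1.42 (1.02 to 2.01), and the lower bounds of these last pairs lay close to 1. The second Rtn4r peak and Rtn4 differed by a factor of 1.11 (0.839 to 1.48), and the 2 Rtn4r peaks by 1.28 (0.878 to 1.88), which the counts do not resolve in either direction. In order of ratio, Omg stood first and the neighbours below it, first Rtn4r peak, second Rtn4r peak and Rtn4, were not each resolved from the next. Apart from the 2 Rtn4r peaks, each pair spans different chromosome strands. The median exonic ratio was 18.3 on chromosome 11 plus (Omg), 13.05 on chromosome 11 minus (Rtn4) and 10.96 on chromosome 16 minus (Rtn4r). The differences in ratio between the 3 genes therefore cannot be told apart from the chromosome strand.

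Within a library, levels per 1000 bases could be set side by side. In the input, Rtn4 was 2.68 times the Omg level (1.997 to 3.64), and Omg was 1.63 times the level of the second Rtn4r peak (1.16 to 2.30). In the IP, Rtn4 was 1.26 times the Omg level (1.18 to 1.33), and Omg was 3.14 times the second Rtn4r peak (2.92 to 3.37). The 2 Rtn4r peaks, on one transcript, differed by 1.29 in the IP (1.19 to 1.41) and by 1.65 in the input (1.15 to 2.41), with the second peak higher in both.

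These IP levels have to be read with how the list is built. The caller was run on each strand, and on each chromosome strand the listed peaks had nearly one IP level. Among the 30 chromosome strands with at least 2 listed peaks, the highest IP reads per 1000 bases exceeded the lowest by 1.03 to 1.90 times, with a median of 1.5. On the minus strand of chromosome 11, where the Rtn4 peak lies, the 14 listed peaks ran from 10960 to 14460 reads per 1000 bases, and Rtn4 had 11950. On the plus strand, which holds the Omg peak, 48 peaks ran from 8265 to 12960, and Omg had 9510. On the minus strand of chromosome 16, 88 peaks ran from 2052 to 3671, and the Rtn4r peaks had 2345 and 3029. The lowest listed level was above that of both Rtn4r peaks on 28 of the 30 chromosome strands with an exonic peak. The differences in IP level between the member genes, that of Rtn4 and Omg included, therefore cannot be told apart from the chromosome strand. A region without a listed peak, such as the shared exons of Rtn4 or the 420 bases between the Rtn4r peaks, has no level here in either direction. The cause of the bands was not tested.

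With the IP level nearly fixed on a strand, the ratio there followed the input. Input reads per 1000 bases of the exonic peaks spanned 2.30-fold on the minus strand of chromosome 11 and 52.1-fold on its plus strand. Across exonic peaks with an input read, the ratio and the input level had a Spearman correlation of -0.942 over the 14 peaks of chromosome 11 minus, -0.984 over the 47 of chromosome 11 plus and -0.976 over the 85 of chromosome 16 minus, as a description over peaks that share libraries and with the input in both quantities. Among the exonic peaks of their own strand, 4 of 14 had a lower ratio than Rtn4, 34 of 47 a lower ratio than Omg, and 62 and 48 of 86 a lower ratio than the first and the second Rtn4r peak.

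**Figure D3:**
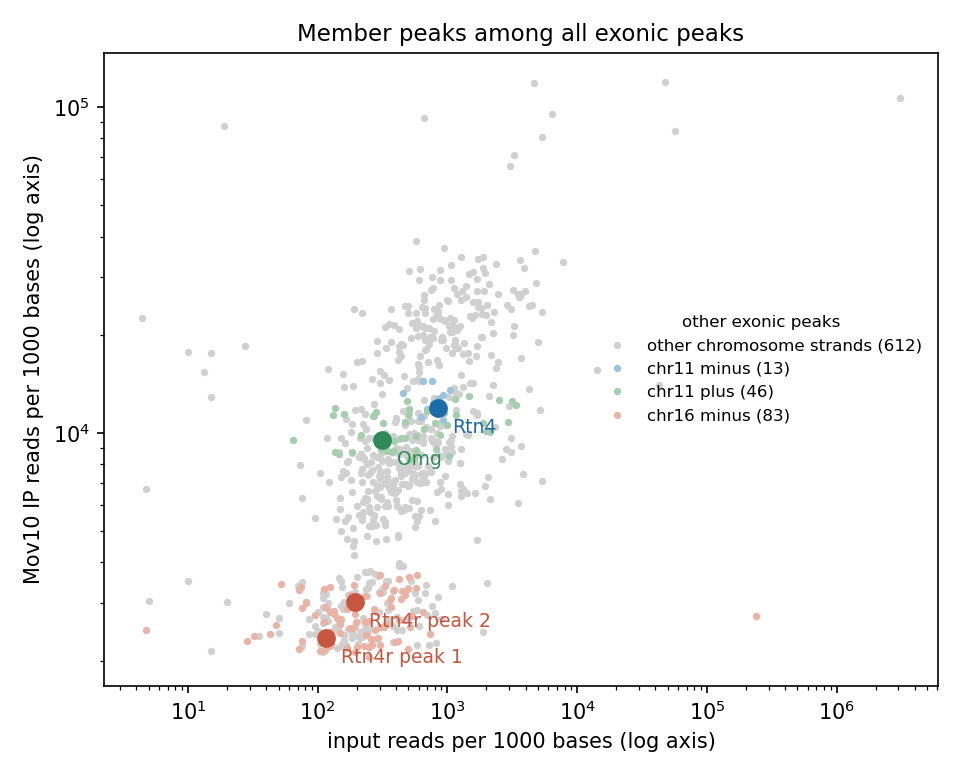
Mov10 IP reads against input reads, both per 1000 bases on log axes, for exonic peaks with a read in both libraries, with the members as large circles and the other peaks of their chromosome strands tinted. The peaks of chromosome 16 minus, Rtn4r among them, fill a band from 2052 to 3671 IP reads per 1000 bases, below the bands of both strands of chromosome 11.

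The adjusted p of the list gave a different order. It was at most 0.05 for 3 of the 4 member peaks. It was listed as 0 for Omg, 3.00e-143 for the first and 6.08e-142 for the second Rtn4r peak, and 1 for Rtn4. In the whole list 43.4% of peaks passed, and among exonic peaks 90.4%. The Rtn4 value was shared by its whole strand, since all 14 exonic peaks on chromosome 11 minus had an adjusted p of 1, with ratios from 9.88 to 24.2 and intervals above 1 in all 14. In contrast, all 47 exonic peaks on chromosome 11 plus passed, Omg included, and 85 of 86 on chromosome 16 minus. No exonic peak passed on 3 chromosome strands, which held 71 of the 74 exonic peaks that did not pass. The median ratio was 14.5 in the 74 peaks and 14.6 in those that passed. The empirical false discovery rate (eFDR) of the list was 1 for Rtn4, 0.227 for Omg, 5.11e-144 and 1.52e-142 for the Rtn4r peaks, and on 24 of the 30 chromosome strands no exonic peak was at or below 0.05. The reason for this split by chromosome strand was not tested.

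**Figure D4:**
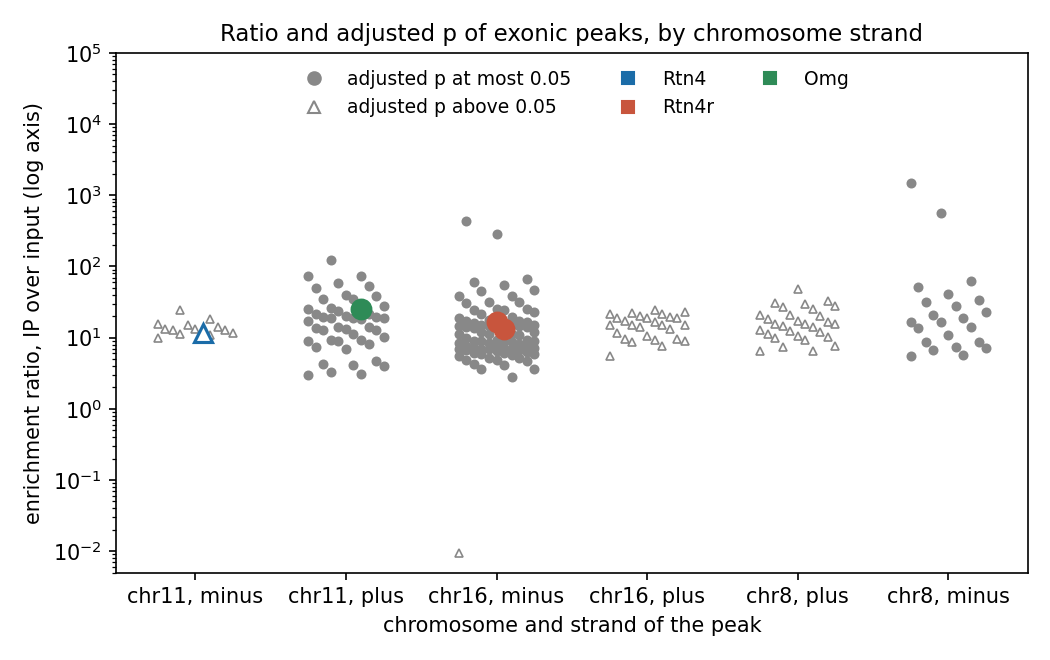
Enrichment ratio (log axis) of each exonic peak on 6 chromosome strands, with filled circles for peaks at an adjusted p of at most 0.05, open triangles for the others and the members in colour. All 14 peaks of chromosome 11 minus, Rtn4 included, are triangles at ratios of 9.88 to 24.2, whereas all 47 peaks of chromosome 11 plus are circles.

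The lists of the wider Nogo pathway held 36 genes in all, of which 35 were annotated under their symbol and 29 lay opposite a chromosome strand with a listed peak. Of the 33 genes other than the members, 4 had an exonic peak, and 3 of these passed the adjusted p. Of all 558 genes with an exonic peak, 497 had one that passed. The 4 genes are 12.1% of the 33, where 449 of all 21992 protein-coding genes (2.04%) had an exonic peak. Among protein-coding genes opposite a chromosome strand with a listed peak the share was 2.71%, a limit that was not put on the 33. The difference was not tested, since the lists were chosen with results known and the comparison genes were not matched for expression in brain. The genes without a listed peak have no value here.

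Among the ligands, 2 of 4 genes were listed, Rtn4 and Omg, with none of Mag, the myelin-associated glycoprotein, and Lgi1. Of the 9 receptor and co-receptor genes, Rtn4r was the only one listed, without Lingo1 and Ngfr, which encode its signalling partners, and without its relatives Rtn4rl1 and Rtn4rl2. The receptor Lilrb3 was not found under that symbol. Of 13 genes of the signalling that follows, 2 were listed. Arhgdia had 1967 IP and 176 input reads outside its coding sequence and a ratio of 9.32 (7.98 to 10.9). Dpysl2 encodes CRMP2, a tubulin-binding protein of growing axons, and had 985 and 358 reads and a ratio of 2.29 (2.03 to 2.60).

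Of the 4 reticulon genes, Rtn3 was listed beside Rtn4, with 1310 IP and 281 input reads and a ratio of 3.89 (3.41 to 4.44). Of 7 chondroitin sulfate proteoglycans and their receptors, another class of growth inhibitors, Ncan (neurocan) was listed with 1750 and 221 reads and a ratio of 6.60 (5.74 to 7.63), and an adjusted p of 1 on a strand where none of 30 exonic peaks passed. All 4 member peaks had a higher ratio than each of these 4 genes. The narrowest margin was that of Rtn4 over Arhgdia, 1.26-fold (1.01 to 1.59), and the widest that of Omg over Dpysl2, 10.96-fold (8.27 to 14.7). Of the reticulons, Rtn4 exceeded Rtn3 by 3.03-fold (2.47 to 3.74). The 16 comparisons carry no adjustment, and the median gene ratio was 14.7 over all 558 genes with an exonic peak. Except for Omg and Arhgdia, both on chromosome 11 plus, each comparison spans different chromosome strands. Those differences in ratio cannot be told apart from the chromosome strand.

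**Figure D5:**
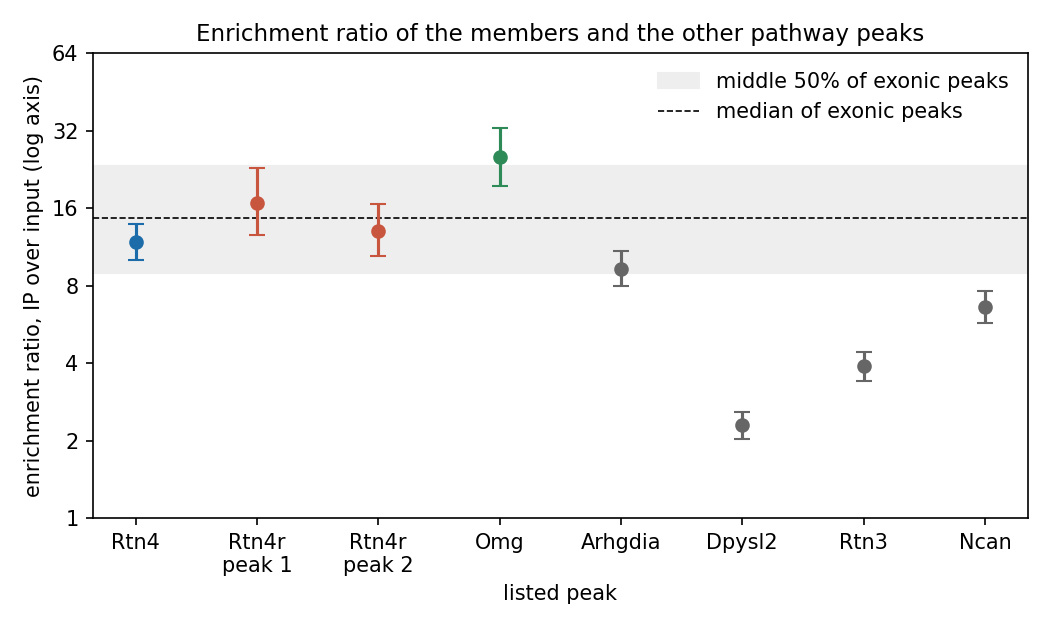
Enrichment ratio (log axis) of the 4 member peaks and the 4 other pathway genes with a listed exonic peak, with exact 95% intervals, the median of 768 exonic peaks (dashed) and their middle range from 8.96 to 23.2 (grey). The members lie between 11.8 and 25.2, and the other pathway genes between 2.29 and 9.32.

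The genes next to the members by ratio belonged to several kinds, which is a description of the list. The exonic peaks just below and above Rtn4 were in Chmp3, Gm9517 and Aplp1 (11.7 to 11.8) and in Kpna3, Olig1 and Eif4g1 (11.8 to 11.9). Rtn4r, with its reads summed, stood between Atxn10, Rpl31 and Robo1 below and Crmp1, Sh3bp5 and another Robo1 peak above, at 14.3 to 14.6. Robo1 encodes the axon guidance receptor for Slit and lies on the same chromosome strand as Rtn4r. Next to Omg stood Selenop, Gm18335 and Gm12231, the latter both processed pseudogenes, and Eif3a, Cldn5 and Hnrnpul1, at 24.9 to 25.6.

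Marker genes were looked up in the list, which cannot check the tissue label because a gene without a listed peak has no value. Of 10 neuron markers 6 had a listed exonic peak, Tubb3, Map2, Snap25, Syn1, Nefl and Nefm, and of 12 oligodendrocyte markers 1, Olig1. All 10 neuron markers lay opposite a chromosome strand with a listed peak, against 8 of the 12 oligodendrocyte markers. The share with an exonic peak over all protein-coding genes, not matched for expression in brain, was 2.04%. None of 5 blood and 5 microglia markers was listed, of which 4 and 4 lay opposite such a strand, and this does not measure their level.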

How the data were processed

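Mov10-bound RNA and input RNA of P2 brain were each sequenced as 1 library. The submitters' processing notes name bcl2fastq 2.17.1.14 and TopHat2 2.1.1, and the paper's methods describe alignment to unmasked mm10 with up to 2000 alignments per read and peak calling with RIPSeeker on each strand, IP against input. In the deposited peak list, the counts of IP and input reads in each peak, the adjusted p-values and the eFDR are the authors' values and were used as deposited. Counts are not scaled to depth.

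Exons came from GENCODE M21. A peak was given to a gene where at least 1 base lay over an exon on the opposite strand. For each library, counts were divided by its aligned reads, and the enrichment ratio is IP over input, that is, the ratio of the counts times 0.834. Where a count was 0, 3 reads stood in. Ratios have exact conditional binomial intervals at 95%, counts have exact Poisson intervals, and ratios of ratios have exact conditional intervals. With 1 library a group, no p-value was computed and none is given across genes. The interval code was tested on simulated counts. Copies were sought with BLAST 2.17.0. Other work used Python 3.11.15, numpy 2.4.6, scipy 1.17.1, intervaltree 3.1.0 and matplotlib 3.10.9.

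The members and gene lists were chosen with earlier results of these data known. The genes named are the members, every gene of the pathway lists with an exonic peak, the marker genes with one, and the 3 exonic peaks next to each member on either side by ratio, where they had at least 10 input reads, and the genes at the Omg locus (Nf1, Evi2a and Evi2b). Pathway genes named without a peak were picked after the list had been seen. The bands of IP level per chromosome strand were noticed after the values had been seen. The immunoprecipitation with a control antibody was not used here.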

Additional observations from a re-analysis of the deposited data

How the results depend on the processing

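No paired analysis was possible because each group has 1 library. Every library total other than the aligned reads multiplies all ratios by the same factor, so pairs and ranks do not move. With uniquely aligned reads the ratios were 7.22 for Rtn4, 10.3 and 8.02 for the Rtn4r peaks, 8.87 for Rtn4r summed and 15.4 for Omg. With the reads in all listed peaks they were 5.59, 7.95, 6.21, 6.87 and 11.9. With all sequenced reads, Rtn4 fell to 9.66 and Rtn4r summed to 11.9, outside their intervals. With the median exonic ratio set to 1, Rtn4 (0.8055), the second Rtn4r peak (0.894) and Rtn4r summed (0.989) lay below 1, whereas the first Rtn4r peak (1.15) and Omg (1.72) lay above it. Ranked within their own chromosome strand, 28.6% of exonic peaks lay below Rtn4, 72.1% and 55.8% below the Rtn4r peaks and 72.3% below Omg, against 37.8%, 58.1%, 43.9% and 78.1% over all exonic peaks. An eFDR of 0.05 in place of the adjusted p passed 538 peaks of the list in place of 996, and 2 member peaks, both of Rtn4r, in place of 3. Keeping only peaks past the adjusted p left Rtn4 without a value. The other 35 settings changed no direction and moved no value beyond its interval and no count by over 1.5 times, among them a pseudocount of 1, an adjusted p of 0.01, exons on either strand and an overlap of at least 50%. With 49 to 169 input reads per peak, the input count sets the width of the intervals.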

Other observations

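The split of the adjusted p by chromosome strand was not particular to the Rtn4 peak. On the plus strand of chromosome 16, none of 27 exonic peaks passed 0.05, with a median ratio of 15.1, and on the plus strand of chromosome 8, none of 30, with a median ratio of 15.6. The minus strand of chromosome 16, where the Rtn4r peaks lie, had a lower median ratio, 10.96, and 85 of 86 exonic peaks passed. Among chromosome strands with an exonic peak, the band of IP level was lowest on the minus strands of chromosomes 16 and 6. The lowest exonic peak on the other chromosome strands had 4209.5 IP reads per 1000 bases. All 210 exonic peaks of these minus strands, 86 and 124, lay below that level.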
